A study of Mus musculus with 6 samples.

Results

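Chromatin remodellers and histone modifiers were examined in bulk RNA sequencing of retinal ganglion cells from adult mice. The 70 members were the rows of the raw count table, out of 22413 rows, whose symbols belong to the SMARC, CHD, HDAC, KDM, KMT and KAT families, together with Srcap, Ino80, Ep400, Atrx, Crebbp and Ep300. Kdm5c and Kdm5d were left out by the rule. By role they were 12 Smarc genes, 9 CHD remodellers, 4 genes of the INO80, SRCAP, EP400 and ATRX kind, 4 class I histone deacetylases, 7 other histone deacetylases, 10 acetyltransferases, 8 methyltransferases of the KMT series and 16 demethylases of the KDM series. The rule uses symbols only.

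All 6 libraries came from mice whose Tgfbr1 alleles, which encode a receptor kinase for TGF-beta, were both floxed (Tgfbr1flx/flx). In 3 of them (genotype Vglut2Cre/+, called knockout here) the mice also carried Cre recombinase at Vglut2, the gene Slc17a6 for the vesicular glutamate transporter of ganglion cells and other glutamatergic neurons. The other 3 (genotype Vglut2+/+, called control) had no Cre, so the control carries the same floxed alleles but not the driver, and effects of Cre itself cannot be told apart from those of losing the receptor. The comparison asks which genes differ between the genotypes. The labels do not say whether a sample was 1 animal or a pool, and a p-value here reflects only how much these samples vary, which may be technical variation.

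Chromatin remodellers use ATP to slide, eject or exchange nucleosomes, and fall into SWI/SNF, ISWI, CHD and INO80 families. Histone-modifying enzymes add acetyl or methyl groups to lysines of histone tails (KAT and KMT enzymes) or remove them (HDAC and KDM enzymes), and most work inside multi-subunit complexes. In neurons SWI/SNF complexes exchange subunits as progenitors leave the cell cycle, and histone deacetylases are studied in the optic nerve for their part in ganglion cell death and axon regrowth.

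The libraries held 7486359 to 21126291 gene counts, and a gene with 0 counts may still have been present at up to 0.142 to 0.401 CPM, the level of 3 counts, as far as counting error goes. CPM are counts per 1000000 counts of the library total. Control 3 stood apart by its cell type markers. Its summed level over 9 endothelial genes was 6084 CPM, against 35.9 to 687 CPM in the other 5 libraries, and all 9 were detected in it. The 13 ganglion cell markers summed to 611 CPM in control 3 and to 2713 to 4787 CPM in the others, and Slc17a6 had 0 counts in control 3. The ganglion cell marker Rbpms went the other way, with 4203 counts in control 3, 52 and 494 in controls 1 and 2, and 1, 3567 and 2341 in knockouts 1 to 3. Where a result rests on control 3, its value without that library is given too. Photoreceptor markers reached 13 CPM at most (knockout 3), microglial markers 9.23 CPM at most (knockout 2), and both red blood cell genes in the table stayed under 1 CPM in sum. Amacrine markers summed to 21.2 to 666.5 CPM and bipolar markers to 0 to 179.5 CPM, while Müller glia and astrocyte markers summed to 49.0 to 509 CPM. In bulk samples fewer cells of a type and less RNA per cell cannot be told apart. Tgfbr1 itself had 46, 0 and 793 counts in knockouts 1 to 3, against 1, 0 and 1538 in controls 1 to 3. Counts per gene do not separate the floxed part from the rest of the transcript, so they do not check the labels.

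The upstream sequences shown here belong to Smarcc1 and Srcap, a member with more and a member with fewer counts in the knockout, both at an unadjusted p under 0.05. Neither gene passed the adjusted threshold, and the sequences are given as a description. Each is the 250 bases that end just before the gene as RefSeq gives it (GRCm38.p6, the assembly called mm10), 5′ to 3′ on the gene's strand. Matches to the GC box GGGCGG on either strand, a binding motif of Sp-family factors, are in capitals. Smarcc1 lies on the plus strand (chr9:110131774-110132023) and so does Srcap (chr7:127511733-127511982).
Smarcc1: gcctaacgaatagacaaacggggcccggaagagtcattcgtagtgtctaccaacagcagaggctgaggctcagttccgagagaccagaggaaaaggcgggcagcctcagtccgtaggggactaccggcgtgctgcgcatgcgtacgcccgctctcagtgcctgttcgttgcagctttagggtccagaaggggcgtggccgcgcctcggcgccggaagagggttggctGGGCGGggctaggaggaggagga
Srcap: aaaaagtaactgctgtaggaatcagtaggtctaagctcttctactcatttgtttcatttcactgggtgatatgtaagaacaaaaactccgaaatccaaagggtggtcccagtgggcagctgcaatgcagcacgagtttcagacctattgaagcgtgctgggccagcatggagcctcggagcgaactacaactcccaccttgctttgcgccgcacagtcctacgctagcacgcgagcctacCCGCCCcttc
Each window held 1 GC box, with 21 CG dinucleotides before Smarcc1 and 11 before Srcap. The windows before the listed starts of Kdm2b and Kmt5b reached 171 and 59 bases into those genes' outer bounds and are not shown. Smarce1, also at an unadjusted p under 0.05, had no listed window. Over the 54 members matched by symbol (75 windows, since some genes have several starts), the median was 19 CG dinucleotides, against 10 in the 21263 windows of protein-coding genes and 6 in all 32851 windows. A GC box was present in 68% of member windows, 42.6% of protein-coding windows and 32.7% of all windows. The palindromic Smad box GTCTAGAC was in 0 of the 75 member windows and in 0.167% of all windows, and the cAMP response element TGACGTCA was in 0 and in 1.55%. The E box CACGTG was in 3 member windows (4%) and in 6.02% of all windows. Both strands were searched, each motif was counted by itself whether or not it overlapped another, and a match is a description of letters only.

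Summed over all 70 members, the level hardly differed between libraries, while which members made it up differed from library to library. The sum was 2774, 2871 and 2750 CPM in knockouts 1 to 3, against 2608, 2552 and 2840 CPM in controls 1 to 3, which is 2798 ± 64.1 CPM against 2667 ± 153 CPM (SD, n = 3). The genotypes overlapped through control 3 only. Without it, controls 1 and 2, at 2608 and 2552 CPM, lay below the lowest knockout, at 2750 CPM. The 3 most abundant members held 19.7% of the sum in knockout 2 but 52% in control 1, where Crebbp alone stood at 800.2 CPM. The leading member was Atrx in knockout 1 (368.8 CPM), Smarca5 in knockout 2 (215.9), Crebbp in knockout 3 (268), control 1 and control 3 (305.5), and Hdac2 in control 2 (420.5).

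**Figure D1:**
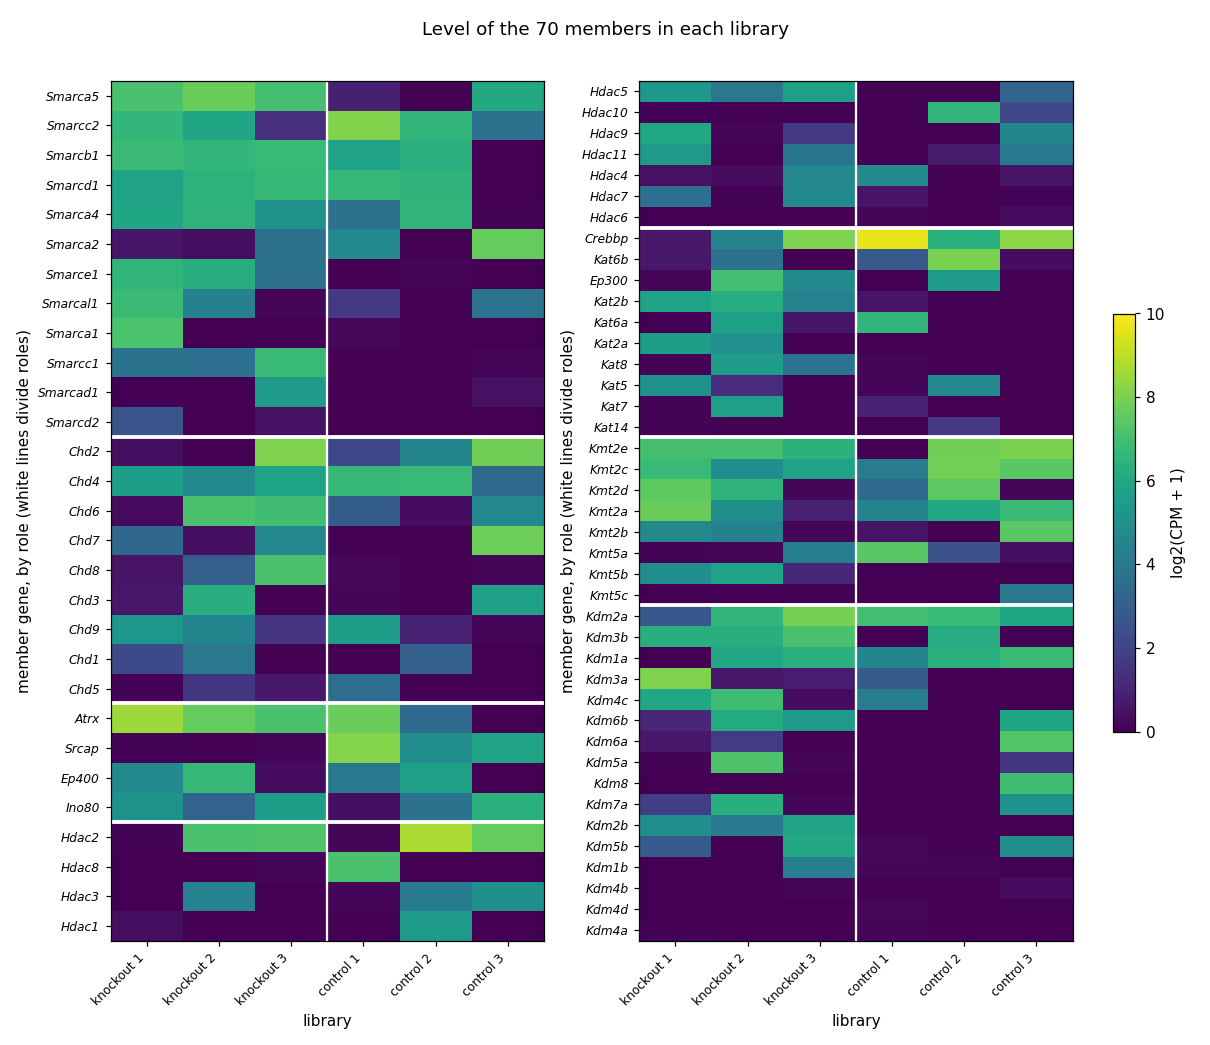
Level of each of the 70 members, as log2(CPM + 1) by colour, in the 3 knockout and 3 control libraries (columns), with members as rows in order of role and white lines between roles. Dark cells are values near 0, and most rows mix dark and bright cells within a genotype: 48 of the 70 members stood at 10 CPM or more in one library and at 3 counts or fewer in another library of the same genotype.

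More members were detected in the knockout. With 10 counts as the minimum, 38, 46 and 38 of the 70 members were detected in knockouts 1 to 3, against 29, 28 and 31 in controls 1 to 3. The means were 40.7 ± 4.62 and 29.3 ± 1.53 (SD, n = 3), a ratio of 1.39, and the genotypes did not overlap. Detection over all 22413 rows moved the same way, with 6579 ± 723 genes in the knockout, against 4528 ± 308 in the control, a ratio of 1.45, so the ratio for the members was not above that for the table. With each library thinned to 7486359 counts the mean difference between genotypes was 11 members, against 11.3 before, and without control 3 it was 12.2.

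**Figure D2:**
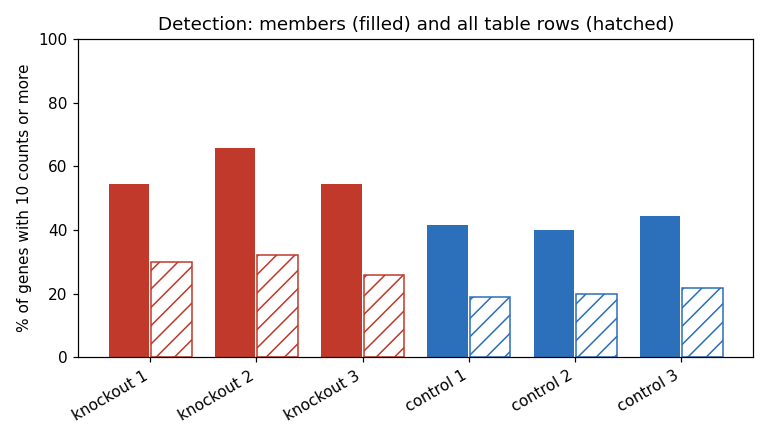
Share of the 70 members (filled bars) and of all 22413 rows (hatched bars) with 10 counts or more, in % on the y axis, for each knockout (red) and control (blue) library. Members lie at 54.3% to 65.7% in the knockouts, against 40% to 44.3% in the controls, and all rows at 25.8% to 32.2% and 19% to 21.7%.

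Few members were measured throughout. Of the 66 members detected in some library, 4 (6.06%) were detected in all 6, namely Chd4, Kdm2a, Kmt2c and Smarcc2, and 9 (13.6%) in a single library. Among the 11977 genes of the table detected somewhere, 9.99% were detected in all 6 libraries and 32.7% in a single one. Hdac6, Kdm4a, Kdm4b and Kdm4d were below 10 counts everywhere. Gaps within a genotype were frequent among members and in the table: 48 of the 66 detected members (72.7%) and 68.3% of detected genes had at least 10 CPM in one library and 3 counts or fewer in another of the same genotype. Within the controls the shares were 53% and 44.4%, and within the knockouts 43.9% and 42%.

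No member passed the comparison of knockout with control. The low-count filter kept 44 of the 70 members and 5727 genes of the table, and 0 of either had a Benjamini-Hochberg adjusted p under 0.05 in edgeR's quasi-likelihood test (0.00% of genes tested), the smallest for a member being 0.681. DESeq2, the alternative count model, called 840 of all 22413 genes, or 11.9% of the 7082 to which it gave an adjusted p. It called 9 of the 70 members. They were Kat2a, Kat2b, Kat8, Kdm2b, Kmt5b, Smarce1 and Chd8 as higher in the knockout and Hdac10 and Srcap as lower. Each of these 9 was detected in 2 or 3 of the 6 libraries. DESeq2 gave no adjusted p to some of the 70 members, such as Smarca5 and Smarcc1. The 9 of 70 and the 11.9% are therefore not on the same basis. limma voom called 0 members (1.54% of genes tested). At an unadjusted edgeR p under 0.05 there were 5 members, 4 higher in the knockout (4.49% of all tested genes were) and 1 lower (0.419%). With DESeq2 9 and with limma voom 0, the count of called members depended on the tool.

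Of the 44 tested members, 30 had a positive log2 fold change, knockout against control, and 14 a negative one. Among all tested genes 54.2% were positive. The median was 1.00 for the members and 0.14 for all tested genes. These 44 are not the whole set, since the low-count filter dropped 26 members. A member high in 1 genotype only could pass the filter through that genotype, so the split of the 44 also depends on the filter. The standard errors, worked out from the edgeR fold change and F statistic and given after ± beside a log2 fold change, were wide. Their median was 3.21 for the tested members and 3.12 for all tested genes on the log2 scale. With DESeq2's size factors the split was 28 to 16 and the medians were 0.61 for the members and -0.15 for all genes. The members did not stand above the table in every setting. With no low-count filter 57.1% of the 70 members were positive (median 0.81), against 62.3% of all genes (median 1.40). With DESeq2 these were 57.1% (median 0.46) and 59.1% (median 0.64), and on log2(FPKM + 1) they were 63.6% and 62.3%, with a median of 0.47 for each. Over all 66 detected members, 35 (53%) were detected in more knockouts than controls and 15 (22.7%) in more controls. The shares among detected genes of the table were 54.8% and 18.9%, close to those of the members.

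**Figure D3:**
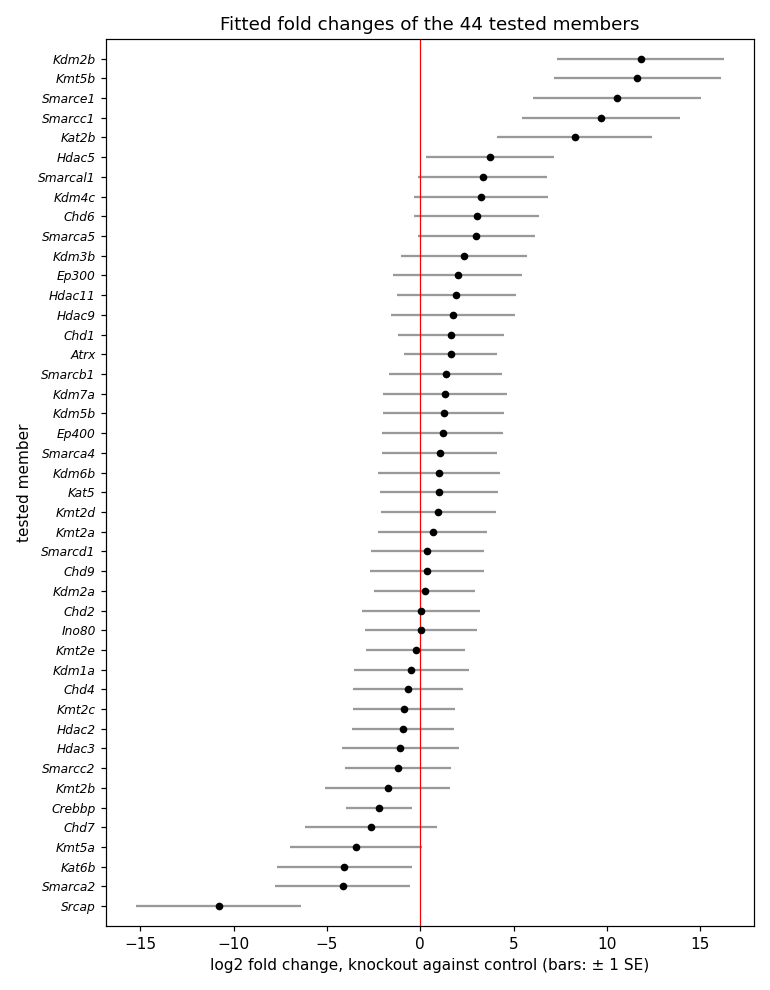
Fitted log2 fold change, knockout against control (x axis), of the 44 tested members (y axis, sorted), with bars of 1 SE. The SE was worked out from the edgeR fold change and F statistic. Kdm2b, Kmt5b, Smarce1 and Smarcc1 lie farthest to the right and Srcap farthest to the left, and none passed the adjusted threshold.

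In 11 of the 66 detected members the genotypes did not overlap. All knockouts were above all controls for 10 (15.2%) and below them for 1 (1.52%). Over detected genes of the table these shares were 8.0% and 1.40%. Of the 44 tested members 9 lay above and 1 below, against 10.4% and 2.30% of the tested genes. Of all 70 members 10 lay above and 1 below, against 4.80% and 0.799% of all 22413 genes. Smarcc1, Smarce1, Kat2b, Kdm2b and Kmt5b were detected in all 3 knockouts and in no control, which held for 5 members (7.58%) and for 2.29% of detected genes. Srcap alone (1.52%, against 0.134% of detected genes) was detected in all 3 controls and in no knockout. Both patterns need detection in at least 3 libraries, which 45 of the 66 detected members and 5738 of the 11977 detected genes reached. Members were thus detected more broadly than the table. Of those 5738 genes, 274 showed the first pattern and 16 the second. The 10 were Smarca5, Smarcb1, Smarcc1, Smarce1, Chd8, Hdac5, Kat2b, Kdm2b, Kdm3b and Kmt5b, and the 1 was Srcap. With a single library left out, the count above ran from 12 to 16 and the count below from 1 to 5, fewer libraries being easier to separate.

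**Figure D4:**
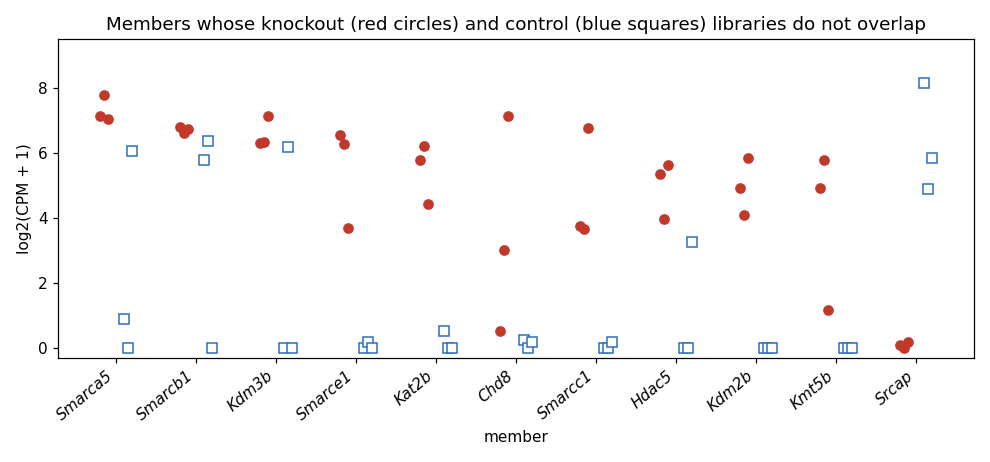
Level, as log2(CPM + 1), of the 11 members whose knockout libraries (red circles) and control libraries (blue squares) do not overlap, 1 point per library. Srcap alone has the controls on top, the gap for Smarcb1 and Kdm3b is narrow because control 2 lies just under the knockouts, and for Kmt5b and Chd8 the lowest knockout point is close to the controls.

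Smarc genes encode the ATPases and core subunits of SWI/SNF complexes (also called BAF) and of the ISWI family, plus 2 further helicase-like proteins. They were the only role whose summed levels did not overlap between genotypes over all libraries. The sums were 821, 655 and 549 CPM in knockouts 1 to 3, against 471.5, 359 and 289 CPM in controls 1 to 3. The means were 675 ± 137 and 373 ± 92.1 CPM. Without control 3 the control mean was 415 CPM, and the demethylases did not overlap either. Their sums were then 453 to 672 CPM in the knockouts, against 173 and 259 CPM in controls 1 and 2. The roles were set side by side after their values were seen. Of the 12 genes, 9 were tested, 7 with a positive and 2 with a negative log2 fold change (median 1.36), and 0 passed.

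Smarce1 encodes BAF57, a DNA-binding core subunit. It was at 91.4 CPM, 76.1 CPM and 11.8 CPM in knockouts 1 to 3, against 0, 1 and 0 counts in controls 1 to 3. All the control libraries were thus at or near 0, and the depth-scaled ratio of group totals was 2446 (95% counting interval 439 to 96660). The fitted log2 fold change was 10.54 ± 4.49 (edgeR adjusted p = 0.832). Fitted values of such genes depend on the small count added in the fit and are not bounds. A processed copy of the gene, Smarce1-ps1, is annotated elsewhere in the genome, so some reads may belong to either.

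Smarcc1 (BAF155) and Smarcc2 (BAF170) are paralogous scaffold subunits. Smarcc1 stood at 12.5 CPM, 11.6 CPM and 107 CPM in knockouts 1 to 3, and had 0, 0 and 2 counts in controls 1 to 3 (log2 fold change 9.67 ± 4.24, edgeR adjusted p = 0.842). The depth-scaled ratio of group totals was 528 (95% counting interval 146 to 4364). Knockout 3 carried most of the difference, while both other knockouts were near 12 CPM. Dhx30 overlaps Smarcc1 on the other strand and had 58, 339 and 1140 counts in the knockouts, against 4, 0 and 3944 in the controls, so the 2 genes were both highest among knockouts in knockout 3 but parted in control 3. Smarcc2 was measured in all 6 libraries, at 97.2 CPM, 58.1 CPM and 1.60 CPM in the knockouts, against 275.5, 91.2 and 12.3 CPM in the controls. The ranges overlapped (log2 fold change -1.18 ± 2.84, edgeR adjusted p = 1.00), and without control 1 the sign turned to 0.47. Per length (FPKM), Smarcc2 was the higher of the pair in 5 libraries and Smarcc1 in knockout 3.

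Smarcb1 (SNF5), a small core subunit that contacts the nucleosome, was even across the knockouts, at 110.6, 96.3 and 104.6 CPM, and was at 53.3, 81.3 and 0 CPM in the controls. The means were 104 ± 7.19 and 44.9 ± 41.3 CPM, and the log2 fold change was 1.36 ± 3.03 (edgeR adjusted p = 1.00). Without control 3, where it had 0 counts, the log2 fold change was 0.75. Smarcd1, the accessory subunit BAF60A, likewise had 0 counts in control 3 and was at 52.9 to 102.5 CPM in the other 5 libraries, so its genotypes overlapped.

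The catalytic ATPases of SWI/SNF, Smarca4 (BRG1) and Smarca2 (BRM), are alternatives within a complex. Smarca4 was at 57.5, 90.2 and 34.0 CPM in the knockouts, against 12.2, 95.6 and 0.0611 CPM in the controls. Smarca2 was at 0.502, 0.284 and 12.2 CPM in the knockouts, against 26.4, 0 and 198 CPM in the controls. Per length, Smarca4 led in all 3 knockouts and in control 2, and Smarca2 in controls 1 and 3, control 3 being the library with high endothelial markers. Of 7 core genes (Smarca4, Smarca2, Smarcb1, Smarcc1, Smarcc2, Smarcd1 and Smarce1), knockouts 1 to 3 detected 6, 6 and 7 and controls 1 to 3 detected 5, 4 and 2. Without control 3 the controls detected 5 and 4. The 7 were chosen after their values were seen. Detection over all 22413 rows was also higher in the knockouts, at 30.1%, 32.2% and 25.8%, against 19.0%, 19.9% and 21.7% in controls 1 to 3. Control 3 lacked Smarca4, Smarcb1, Smarcc1, Smarcd1 and Smarce1 at 10 counts, beside its low sum of ganglion cell markers, and the part of the latter in the former was not tested.

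Smarca5 (SNF2H), the main ATPase of ISWI complexes that space nucleosomes, was at 138, 215.9 and 131 CPM in the knockouts, against 0.861, 0 and 64.9 CPM in the controls. The genotypes did not overlap, with means of 162 ± 47.1 and 21.9 ± 37.2 CPM and a log2 fold change of 3.0 ± 3.14 (edgeR adjusted p = 1.00). Without control 3, the only control with a sizeable level, the log2 fold change was 8.34 and did not pass either, and without control 1 it was 2.37. A processed copy, Smarca5-ps, is annotated. Its paralogue Smarca1 (SNF2L) was at 142.6 CPM in knockout 1 and at 2 counts or fewer in each other library. Smarcal1, which rewinds DNA at stalled forks, was highest in knockout 1 as well, at 112.7 CPM, and at 0 to 19.4 CPM elsewhere. Smarcad1 and Smarcd2 were each detected in a single knockout library.

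**Figure D5:**
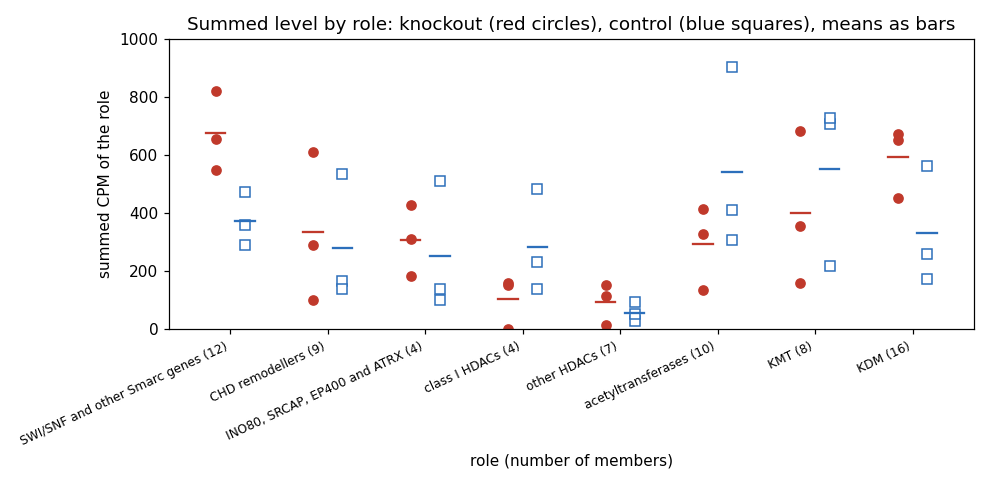
Summed CPM (y axis) of the members of each of the 8 roles (x axis, number of members in brackets) in the knockout (red circles) and control (blue squares) libraries, with short lines at the group means. The Smarc genes are the role in which every knockout lies above every control, from 549 CPM up against 471.5 CPM down. The other roles overlap, the demethylases through control 3 only.

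CHD remodellers carry chromodomains beside the ATPase, and Chd4 is the main ATPase of the NuRD complex, which couples remodelling to histone deacetylation. Their summed level was 333 ± 258 CPM in the knockout, against 281 ± 221 CPM in the control, without a difference beyond the spread. Chd4 was detected everywhere, at 47.4, 25.9 and 54.7 CPM in the knockouts, against 99.1, 108.6 and 9.96 CPM in the controls. The ranges overlapped through control 3 only (log2 fold change -0.66 ± 2.93, edgeR adjusted p = 1.00). Without control 3 the log2 fold change was -1.21, while limma voom on all libraries gave 0.16. Chd2 was at 268 CPM in knockout 3 and 229 CPM in control 3 but at 0 to 22.3 CPM in the other 4 libraries. It was thus high in a single library of each genotype. Its fitted sign changed with the library left out (from -8.84 without knockout 3 to 2.91 without control 3). Chd6 was at 139.6 and 122 CPM in knockouts 2 and 3, at 0.215 CPM in knockout 1, and at 0.267 to 24.5 CPM in the controls. Chd7, mutated in CHARGE syndrome, had 3648 counts in control 3 and was at 0.331 to 23.9 CPM in the knockouts, against 0 in controls 1 and 2. Chd8 was higher in every knockout by rank, though knockout 1 had 6 counts and knockout 3 had 1118, and the controls had 2, 0 and 2.

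Srcap, Ino80 and Ep400 belong to the family that edits nucleosomes by exchanging the histone variant H2A.Z, and Atrx deposits histone H3.3 at repeats. Srcap (chromosome 7, 127511983 to 127561219) was the only member with the knockouts below: 1, 0 and 1 counts in knockouts 1 to 3, against 3258, 216 and 915 in controls 1 to 3, or 281, 28.9 and 55.9 CPM. The depth-scaled ratio of control to knockout totals was 2671 (95% counting interval 739 to 22060), and the log2 fold change was -10.80 ± 4.44 (edgeR adjusted p = 0.781). It lay between -11.43 and -9.05 with any 1 library left out. Over the alternatives the adjusted p ran from 0.00304 (DESeq2) to 1.00. A gene on the opposite strand that shares exon sequence with Srcap, 1700008J07Rik, had 1521 counts in control 1 and 0 in the other 5 libraries, so part of the control 1 level cannot be assigned to either strand, while in controls 2 and 3 that gene was not counted.

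Ep400 works in the same kind of complex and did not follow Srcap: it was at 26.5, 102 and 0.247 CPM in the knockouts, against 15.7, 49.8 and 0 CPM in the controls, and its fitted sign turned to -0.24 without knockout 2. Ino80 was at 34.0, 8.09 and 45.8 CPM in the knockouts, against 0.344, 12.7 and 82.7 CPM in the controls. Atrx was at 368.8, 199.8 and 138 CPM in the knockouts, against 214, 10.3 and 0 CPM in the controls (log2 fold change 1.62 ± 2.47, edgeR adjusted p = 1.00). Control 1 reached the knockout range for Atrx, and without it the log2 fold change was 5.97 (edgeR adjusted p = 0.417). It was 0.97 without control 3, which had 0 counts of both Atrx and Ep400, and 0.99 without knockout 1.

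Class I histone deacetylases remove acetyl groups, and all but Hdac8 do so within Sin3, NuRD, CoREST or NCoR complexes. As a role they were lower on average in the knockout, with overlap. They summed to 0.359, 158.6 and 152.5 CPM in the knockouts, against 137.6, 482 and 231 CPM in the controls. Hdac2, the most abundant, had 1 count in knockout 1 and 1 in control 1, and was at 138 and 152 CPM in knockouts 2 and 3 and 420.5 and 199.9 CPM in controls 2 and 3. It was thus at the floor in a library of each genotype, and the log2 fold change was -0.94 ± 2.74 (edgeR adjusted p = 1.00). Hdac1, its paralogue, reached 10 counts in control 2 alone (44.3 CPM). Hdac3, the NCoR enzyme, was at 20.9 CPM in knockout 2 and 0 CPM in knockouts 1 and 3, and at 0.0861, 17.0 and 31.2 CPM in the controls. Hdac8 had 1596 counts in control 1 and 1 count over the 5 other libraries. At 137.5 CPM it made up nearly all of the control 1 sum.

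Among the other HDACs, Hdac5, a class IIa enzyme that shuttles between nucleus and cytoplasm and is studied in axon injury, was above the controls in each knockout. It was at 39.6, 14.6 and 48.4 CPM in knockouts 1 to 3, against 0, 0 and 8.49 CPM in controls 1 to 3. The means were 34.2 ± 17.5 and 2.83 ± 4.90 CPM and the log2 fold change was 3.72 ± 3.42 (edgeR adjusted p = 1.00), or 11.75 without control 3 and 3.08 without control 1. Hdac9 was at 61.2, 0.0947 and 2.22 CPM in the knockouts, against 0, 0 and 23.1 CPM in the controls, and its sign turned to -2.82 without knockout 1. Hdac10, which acts on polyamines, was at 92.6 CPM in control 2 and 3.36 CPM in control 3 and had 1 count over the knockouts. Hdac11 was detected in knockouts 1 and 3 and control 3, and Hdac4 and Hdac7 in 2 libraries each.

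Acetyltransferases overlapped in their summed level, at 292 ± 142 CPM in the knockout, against 540.2 ± 319 CPM in the control, of which Crebbp made up most in controls 1 and 3. Crebbp and Ep300 encode the paralogous coactivators CBP and p300, which acetylate histone H3 at enhancers. Crebbp was at 0.574, 21.8 and 268 CPM in the knockouts, against 800.2, 83.8 and 305.5 CPM in the controls, so that knockout 3 fell within the control range (log2 fold change -2.21 ± 1.78, edgeR adjusted p = 1.00). Its log2 fold change was -1.03 without control 1 and -5.26 without knockout 3. Ep300 was at 0.143, 126 and 26.4 CPM in the knockouts, against 0, 45.4 and 0 CPM in the controls. Per length, Crebbp led the pair in knockout 3 and all 3 controls and Ep300 in knockout 2, and knockout 1 had neither at 10 counts.

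Kat2b (PCAF), which works in SAGA and ATAC complexes, was at 54.4, 73.4 and 20.5 CPM in knockouts 1 to 3, against 5, 0 and 0 counts in controls 1 to 3. No control reached 1 CPM, and the fitted log2 fold change was 8.27 ± 4.14 (edgeR adjusted p = 1.00). Its paralogue Kat2a (GCN5) had 642 and 689 counts in knockouts 1 and 2 and 0 in knockout 3 and in every control. The pair was therefore undetected in all 3 controls and represented in all 3 knockouts. A processed copy, Kat2b-ps, is annotated. Kat6b was at 255.5 CPM in control 2 and at 0 to 12.3 CPM in the other 5 libraries, and without control 2 its log2 fold change moved from -4.06 to 0.23. Kat5 (TIP60), Kat6a, Kat7 and Kat8 (MOF) were each detected in 2 or 3 libraries, and Kat14 in control 2 alone.

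The KMT series showed no common shift, with 3 of 7 tested genes positive, 4 negative and a median log2 fold change of -0.24. Kmt2c and Kmt2d (MLL3 and MLL4) methylate histone H3 lysine 4 at enhancers, and Kmt2a and Kmt2b (MLL1 and MLL2) at promoters. Kmt2c was in every library, at 106.8, 28.8 and 54.1 CPM in the knockouts, against 17.8, 235 and 171 CPM in the controls (log2 fold change -0.87 ± 2.73, edgeR adjusted p = 1.00). Kmt2d was at 181.6, 90.9 and 0.123 CPM in the knockouts, against 10.2, 177 and 0.122 CPM in the controls, and its sign turned to -0.19 without knockout 1. Kmt2e (MLL5), a reader without clear methyltransferase activity, was even in the knockouts, at 131.9, 131.4 and 84.0 CPM, and uneven in the controls, at 0, 228 and 259 CPM. Its fitted log2 fold change of -0.24 ± 2.64 (edgeR adjusted p = 1.00) turned to 0.39 without control 3.

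Kmt5b (SUV420H1), which adds further methyl groups to histone H4 lysine 20, had 406, 1148 and 10 counts in knockouts 1 to 3, against 0 in every control. Knockout 3 held only 10 counts, so the separation rests on knockouts 1 and 2. Its knockout level was at least 428-fold higher by a floor of 3 counts over the control group, and the fitted log2 fold change was 11.62 ± 4.47 (edgeR adjusted p = 0.681). Kmt5c, its paralogue, had 246 counts in control 3 and 0 elsewhere, and no library held both at 10 counts. Kmt5a (SET8), which places the first methyl group, was at 169 CPM in control 1 and 19.1 CPM in knockout 3 and at 0.0717 to 4.54 CPM in the other 4 libraries.

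Among demethylases the log2 fold change was positive for 7 of 8 tested genes, with a median of 1.29, and 0 passed. The summed level of all 16 was 453, 672 and 652 CPM in the knockouts, against 173, 259 and 561 CPM in the controls, and control 3 lay within the knockout range. Without control 3 the control mean was 216 CPM, against 592 ± 121 CPM in the knockout. Kdm2b and Kdm2a both demethylate histone H3 lysine 36 and bind CpG islands, and Kdm2b recruits a Polycomb complex there.

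Kdm2b (chromosome 5, 122870664 to 122989270) had 408, 339 and 457 counts in knockouts 1 to 3, against 0 in every control, which is 29.3, 16.05 and 56.4 CPM against none. All 3 knockouts were well above the floor, and the gene was at least 330-fold higher by 3 counts over the control group. The log2 fold change was 11.81 ± 4.46 (edgeR adjusted p = 0.681, and 0.00754 to 1.00 over the alternatives, the lowest with DESeq2), and with 1 library left out it ran from 11.45 to 11.96 with edgeR adjusted p values of 0.417 or more. Rnf34, which overlaps it on the opposite strand, had 18, 1723 and 7 counts in the knockouts, against 5, 0 and 0 in the controls. Its peak in knockout 2 had no counterpart in Kdm2b. Kdm2a was in every library, at 5.81, 97.2 and 248 CPM in the knockouts, against 125, 107.9 and 57.7 CPM in the controls. Its log2 fold change of 0.23 ± 2.69 (edgeR adjusted p = 1.00) turned to -0.89 without knockout 3 and -0.07 without control 3.

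Kdm3b and Kdm3a remove methyl groups from histone H3 lysine 9. Kdm3b was at 78.6, 78.9 and 138.7 CPM in the knockouts, against 0, 71.5 and 0 CPM in the controls, so control 2 came close to the lowest knockout (log2 fold change 2.35 ± 3.36, edgeR adjusted p = 1.00). Without control 2 its log2 fold change was 13.43, a value set by controls at 0, and without control 3 it was 1.78. Kdm3a was at 267.5 CPM in knockout 1 and at 0 to 6.55 CPM in the other 5. Kdm1a (LSD1), the flavin-dependent demethylase of the CoREST complex, was at 0, 60.5 and 83.7 CPM in the knockouts, against 22.9, 79.6 and 106.3 CPM in the controls, and its small negative log2 fold change of -0.48 ± 3.09 turned to 0.08 without knockout 1 and to 0.01 without control 3.

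Kdm6a (UTX) and Kdm6b (JMJD3) remove methyl groups from histone H3 lysine 27. Kdm6a had 2515 counts in control 3 and at most 49 in any other library, and Kdm6b was at 1.15, 70.8 and 41.6 CPM in the knockouts, against 0, 0 and 58.0 CPM in the controls. Kdm8 had 1963 counts in control 3 and 0 elsewhere. Kdm5a had 3138 counts in knockout 2 and at most 32 elsewhere, and Kdm4c was at 61.1 and 118 CPM in knockouts 1 and 2 and at 0 to 17.7 CPM elsewhere. These 5 genes were thus set largely by 1 to 3 libraries each.

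Paralogues were often detected singly. Over 16 pairs of close paralogues in 6 libraries, both were at 10 counts or more in 31 of 96 cases, a single one in 45 and neither in 20. The leading paralogue by FPKM changed between libraries of the same genotype in 10 of the 16 pairs. Examples were Smarca4 and Smarca2 in the controls, Kat2a and Kat2b in the knockouts, and Kmt2a and Kmt2b in both genotypes. These tallies describe the libraries and were made after the values had been seen.

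Other subunits of the same complexes gave 158 further genes in the table, of which 90 were tested: 49 had a positive and 41 a negative log2 fold change, 0 passed with edgeR, and the median was 0.28. An unadjusted p under 0.05 was found for 6 of the 90 (6.67%), each higher in the knockout, against 4.49% of all tested genes. DESeq2 called 12 of the 158, against 840 of all 22413 genes. All knockouts lay above all controls for 17 of the 158 (10.8%) and below for 1 (0.633%), Jmjd6, against 4.80% and 0.799% of all 22413 genes and 8.0% and 1.40% of detected genes. The lists were detected at 87, 107 and 80 genes in knockouts 1 to 3, against 65, 51 and 74 in controls 1 to 3, the same direction as the members and the whole table.

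Partners of the histone deacetylases (NuRD, Sin3, CoREST and NCoR) had 12 of 17 tested genes positive, with a median of 1.04. Mbd3, a core NuRD subunit, had 390, 511 and 375 counts in the knockouts, against 0 in every control (edgeR adjusted p = 0.681). Rcor1, the CoREST scaffold that binds Kdm1a, had 3521, 1412 and 288 counts against 0, 0 and 1 (edgeR adjusted p = 0.681). Kdm1a itself had 0 counts in knockout 1, where Rcor1 was highest, so the levels of these partners did not follow each other in that library. Partners in INO80, SRCAP and TIP60 complexes had 11 of 19 positive. Tfpt of the INO80 complex had 449, 556 and 372 counts in the knockouts, against 0 in every control, and Actr8, an actin-related INO80 subunit, had 71, 2446 and 921 against 0, 0 and 6 (edgeR adjusted p = 0.681 and 0.981). Both stood opposite in direction to Srcap.

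SWI/SNF partner subunits had 6 of 10 positive (median 1.00). Phf10 of the PBAF form had 107, 5641 and 7 counts in the knockouts, against 0 in every control (edgeR adjusted p = 0.681), and Brd9 of the non-canonical form had 365, 4074 and 639 against 18, 0 and 0. Of SAGA and ATAC subunits 3 of 5 were positive, and Eny2, a small SAGA deubiquitinase subunit, was at 460.0 ± 219 against 21.7 ± 26.3 CPM (log2 fold change 4.35 ± 1.90, edgeR adjusted p = 0.841). ISWI partners had 4 of 7 positive, COMPASS subunits 4 of 8, Polycomb subunits 6 of 10 and sirtuins 1 of 2. The remaining methyltransferases and demethylases had 2 of 12 positive and a median of -1.19. In that list Jmjd6 had 0, 651 and 116 counts in the knockouts, against 1620, 843 and 2273 in the controls, or 15.1 ± 15.4 against 130.3 ± 15.3 CPM (edgeR adjusted p = 1.00). The controls were even and every knockout lay below them, and the gene did not pass.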

How the data were processed

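Per the labels' protocols, total RNA was isolated by RNeasy Micro kit, and 1 ng of it per sample (3 knockout, 3 control) went into a VAHTS Universal V6 library. The submitters' processing notes list fastp, HISAT2, HTSeq, DESeq2 and R 3.2.0 beside the build mm10, without saying what each did. Annotation, strand setting and cell isolation: not given in the sources used here. The authors deposited a table of raw counts and a table of FPKM values, each with 22413 genes and 6 sample columns. There were 0 columns of other samples.

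CPM were counts divided by the column total. Genotypes were compared with edgeR 4.0.16 in R 4.3.3 (robust quasi-likelihood test after TMM scaling and the filterByExpr filter, Benjamini-Hochberg adjustment over the 5727 genes kept, threshold 0.05). DESeq2 1.42.0 (no adjusted p for 15331 genes, left missing) and limma 3.58.1 (voom, or log2(FPKM + 1) and log2(FPKM + 0.1)) were alternatives, besides other scalings, filters, a replicate block and each library left out. The fit was tested on simulated data that varied less between libraries than these data. That test does not show which differences could be called here. Ratios of group totals have exact binomial 95% intervals, and a count of 0 was set to 3 counts over the group. Both cover counting error only, since no molecular identifiers separate PCR copies from molecules. The biological coefficient of variation was 2.04.

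The members and lists were chosen with earlier results of these data known. Genes named were, in each role, the 3 with the highest mean CPM, those with unadjusted p under 0.05 and those at 10 counts in all 6 libraries. Members whose genotypes do not overlap and up to 3 genes of a partner list were added. Other members named, the paralogue pairs and the 7 SWI/SNF core genes were chosen after their values were seen. With no strand stated, a member and its antisense neighbour may share reads that cannot be told apart, and 23 of 70 members share exon sequence with an opposite-strand gene in GENCODE M21, and Smarce1, Smarca5, Kat2b and Kat6b have an annotated processed copy. Gene coordinates and promoters are from RefSeq GRCm38.p6.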

Additional observations from a re-analysis of the deposited data

How the results depend on the processing

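The number of members past the adjusted threshold was 0 in every alternative except DESeq2 (9). Over all genes it was 840 with DESeq2 and 88 with limma voom, 0 in the other alternatives on 6 libraries, and 0 to 7 with 1 library left out. Among partner genes it was 12 with DESeq2 and 1 with limma voom. Of the members with p under 0.05, Kdm2b, Kmt5b, Smarce1 and Srcap passed with DESeq2, which gave Smarcc1 no adjusted p. The mean difference in members detected between genotypes was 8.67 to 12.7 with 1 library left out.

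Of 33 genes with a fold change given or named by the rule, 23 kept their sign in all alternatives. Chd2 turned from 0.05 to -0.23 with DESeq2's size factors and -0.23 in DESeq2, -0.042 without a filter, -4.20 in limma voom, -0.66 and -2.11 on FPKM with pseudocounts 1 and 0.1, and -3.74 with the block. In the same order of voom, FPKM and block, Kdm2a turned to -0.53, -0.47, -0.77 and -0.40 and Kmt2e to 3.09, 0.54, 1.57 and 0.55. Chd4 turned to 0.16 in voom. With 1 library left out the ranges were -8.84 to 2.91 for Chd2, -0.24 to 2.27 for Ep400, -2.82 to 11.24 for Hdac9, -7.62 to 0.23 for Kat6b, -1.09 to 0.083 for Kdm1a, -0.89 to 0.79 for Kdm2a, -0.19 to 4.07 for Kmt2d, -0.84 to 0.39 for Kmt2e and -2.15 to 0.47 for Smarcc2. The cause was not tested.

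Samples that share a replicate number did not deviate together (correlations of -0.0243, 0.026 and -0.0112 over 5727 genes), and not every sample correlated best with its own number. With the replicate block 0 members, 0 partner genes and 0 genes in all were called, as without it. The median standard error of a tested member was 3.21 on the log2 scale, and the effect of depth on the calls was not tested.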
